A study of Mus musculus with 20 samples.

Results

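TNF receptor and death signalling genes were followed in cultures of BV-2 microglia, an immortalised mouse microglial cell line labelled as wild type. The 10 genes are the receptors *Tnfrsf1a*, *Tnfrsf1b* and *Fas*, the survival checkpoint genes *Birc2*, *Birc3* and *Cflar*, and the kinases, caspase and pore protein *Ripk1*, *Ripk3*, *Casp8* and *Mlkl*. They were chosen by symbol, each matched 1 Ensembl identifier, and they are 10 of the 55487 rows of the count table. Of these, 9 passed edgeR's filter on low counts and *Ripk3* did not. Poly(A) RNA of 20 cultures was sequenced in 4 groups of 5, namely young untreated, young LPS, aged untreated and aged LPS. Young (control) cells were at low passage, whereas aged cells had been cultivated for months from a later passage and then frozen, and aliquots of both were thawed together. LPS, lipopolysaccharide from E. coli and a ligand of TLR4, was given at 100 ng/ml for 6 h, and the other cultures had none. The labels put 1 culture of each group in each of 5 batches. All cultures are of 1 cell line, the study calls them independent replicates, and p-values measure the spread between them. Whether the aged cultures came from 1 or several long-term cultivations is not stated. The p-values between ages may therefore not cover the spread between such cultivations.

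Each library held 11371508 to 16829292 counts, of which mitochondrial genes took 0.517% to 1.3%. Levels are CPM (counts scaled to a common library size) with library sizes scaled by the TMM method. Of 15 microglia and macrophage markers, *Csf1r* lay at 562 to 998 CPM, *P2ry12* at 0 to 1.87 CPM, and *Sall1* at 0 in all 20 libraries, so markers of resting brain microglia were low or absent. The summed level of 15 markers of other brain cells was at most 2.21 CPM in any library, with *Snap25* and *Cldn5* at 0 in every library. The young untreated replicate 1 stood apart for some genes of the pathway (*Traf1* was at 5.73 CPM there and at 0.831 to 1.63 CPM in the other young untreated cultures), and the aged LPS replicate 3 held the highest *Tnfrsf1b* and *Mlkl* of its group. Some of the results that involve these libraries are also given without them.

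TNF binds TNFR1, the product of *Tnfrsf1a*, which carries a death domain, and TNFR2, the product of *Tnfrsf1b*, which does not. At TNFR1 the kinase RIPK1 is ubiquitinated by cIAP1 and cIAP2 (*Birc2* and *Birc3*), which keeps the cell on a survival course through NF-kappaB and holds RIPK1 back from killing. If this checkpoint fails, RIPK1 engages FADD and caspase-8 (*Casp8*), and cFLIP (*Cflar*), a relative of caspase-8 without catalytic activity, pairs with the caspase and limits it. Where caspase-8 is inactive, RIPK1 and RIPK3 join through a shared motif and RIPK3 phosphorylates MLKL, which breaks the plasma membrane (necroptosis). *Fas* is the death receptor for *Fas* ligand and recruits the same FADD and caspase-8. In macrophages and microglia, TLR4 drives NF-kappaB and interferon signalling, and TNF is among its first products.

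Promoter windows of the genes (RefSeq, GRCm38.p6, 250 bases before to 50 after the start) were searched on both strands for the NF-kappaB consensus, for the core GAAANNGAA of the interferon-stimulated response element (ISRE), and for the STAT site GAS (TTCNNNGAA, which reads alike on both strands). All 10 genes had a window and 12 windows were found, since *Birc2* and *Ripk1* had 2 each. The ISRE core lay in 4 of the 12 windows (*Tnfrsf1b*, *Cflar*, *Ripk3* and the second of *Ripk1*), and the GAS in 4 (*Tnfrsf1a*, *Tnfrsf1b*, *Fas* and the second of *Ripk1*, where a GAS overlaps the ISRE core). The NF-kappaB consensus was in 0 of them. Of all 32851 windows in the table, 8.56% held the ISRE core, 8.3% the GAS and 4.51% the NF-kappaB consensus. A match is a match of letters only, and its absence says only that these letters are not in this window. Shown here are the 3 genes with the largest rises under LPS, then *Mlkl* and *Ripk3*, of which the former was abundant and the latter near 0. Capitals mark the matches, and each window is written 5′ to 3′ on the gene's strand.
Tnfrsf1b, chr4:145246821-145247120, minus strand: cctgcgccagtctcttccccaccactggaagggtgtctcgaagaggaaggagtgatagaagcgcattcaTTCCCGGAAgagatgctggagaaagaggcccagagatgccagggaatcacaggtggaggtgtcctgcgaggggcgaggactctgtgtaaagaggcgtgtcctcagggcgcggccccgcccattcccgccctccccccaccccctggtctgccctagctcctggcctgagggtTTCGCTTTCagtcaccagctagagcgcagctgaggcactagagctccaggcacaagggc
Cflar, chr1:58711241-58711540, plus strand: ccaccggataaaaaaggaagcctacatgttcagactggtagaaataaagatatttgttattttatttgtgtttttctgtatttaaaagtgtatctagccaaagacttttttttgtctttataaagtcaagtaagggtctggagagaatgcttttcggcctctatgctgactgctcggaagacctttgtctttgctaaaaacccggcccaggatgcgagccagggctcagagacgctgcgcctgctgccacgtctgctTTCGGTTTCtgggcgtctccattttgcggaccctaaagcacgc
Fas, chr19:34290409-34290708, plus strand: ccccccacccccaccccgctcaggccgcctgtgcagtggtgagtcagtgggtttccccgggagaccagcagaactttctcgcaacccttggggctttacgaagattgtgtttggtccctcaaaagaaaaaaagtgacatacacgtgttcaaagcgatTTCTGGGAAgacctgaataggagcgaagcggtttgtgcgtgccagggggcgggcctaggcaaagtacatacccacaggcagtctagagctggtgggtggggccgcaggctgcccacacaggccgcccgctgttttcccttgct
Mlkl, chr8:111338156-111338455, minus strand: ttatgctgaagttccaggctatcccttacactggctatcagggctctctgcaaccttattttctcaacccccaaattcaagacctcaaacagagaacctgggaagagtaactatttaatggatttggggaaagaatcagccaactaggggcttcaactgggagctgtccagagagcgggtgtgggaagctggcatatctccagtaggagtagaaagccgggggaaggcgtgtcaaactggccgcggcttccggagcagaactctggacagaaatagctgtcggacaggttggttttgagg
Ripk3, chr14:55788808-55789107, minus strand: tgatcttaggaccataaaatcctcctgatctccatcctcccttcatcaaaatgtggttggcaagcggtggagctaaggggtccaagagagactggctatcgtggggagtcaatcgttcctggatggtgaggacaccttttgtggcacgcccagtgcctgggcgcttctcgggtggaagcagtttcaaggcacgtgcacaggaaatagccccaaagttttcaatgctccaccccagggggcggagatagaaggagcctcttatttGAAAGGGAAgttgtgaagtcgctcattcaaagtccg

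In young cultures, LPS raised 7 of the 10 genes and lowered 2, at an adjusted p below 0.05 in edgeR's quasi-likelihood test over 12799 genes, while 31.2% of all genes tested were called higher and 33.5% lower. In aged cultures 6 were higher and 2 lower, beside 27.5% and 26.9% of all genes. The median log2 fold change of the 9 genes tested was 1.67 in young and 1.03 in aged cultures, whereas the median over all genes was -0.01 and 0.00. *Fas* passed the filter on low counts only through its LPS-treated cultures. Since the libraries are of bulk cultures, fewer cells with a transcript and less of it per cell cannot be told apart.

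**Figure D1:**
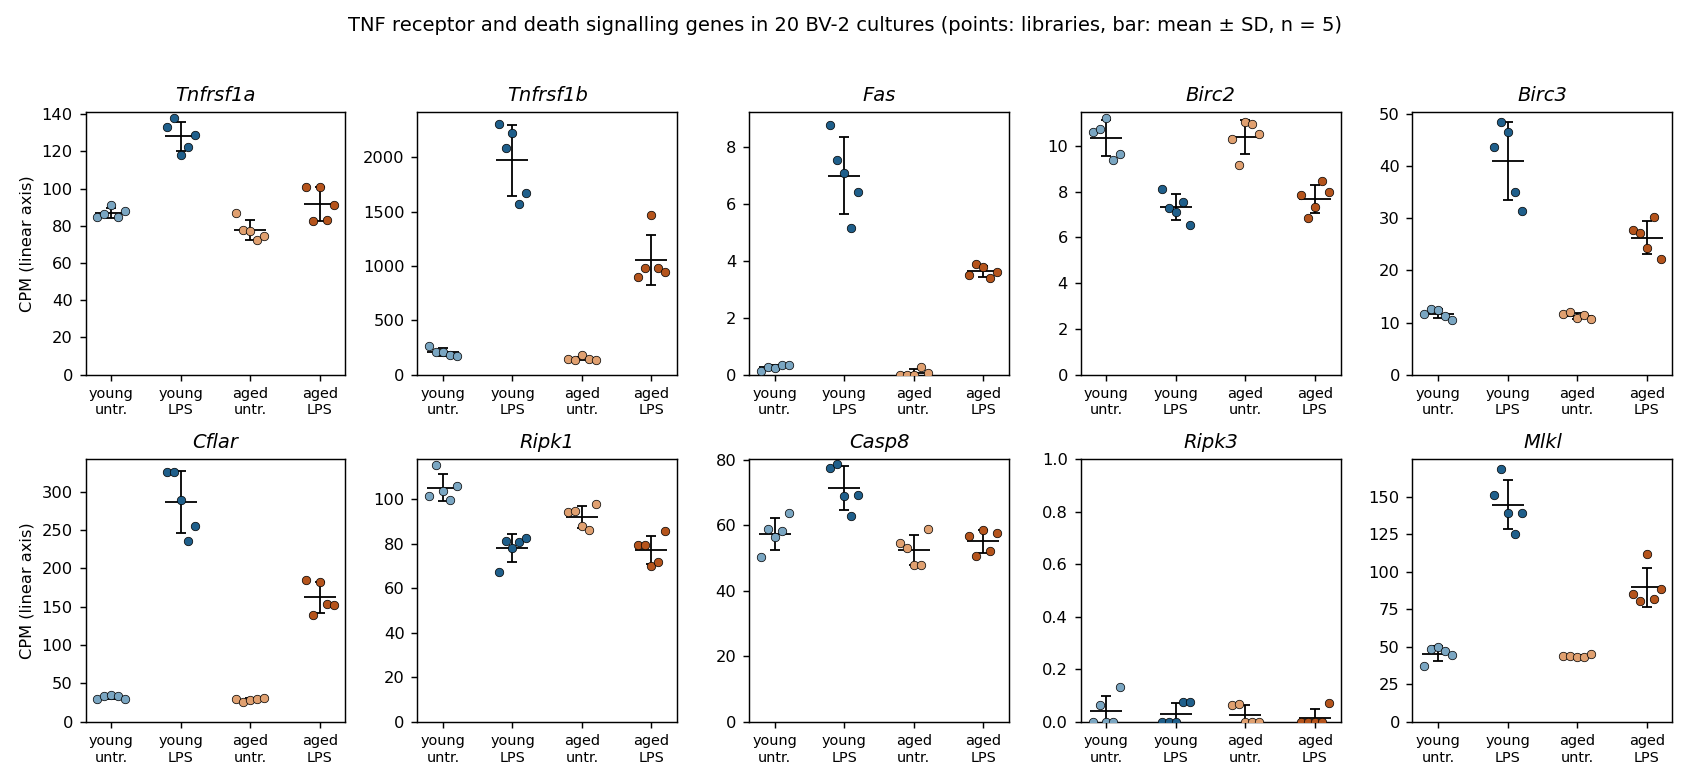
CPM of each of the 10 genes (linear axis from 0, a scale of its own per panel) in the 20 libraries, by group. Points are libraries, horizontal bars are means and error bars SD (n = 5). *Tnfrsf1b*, *Fas*, *Birc3*, *Cflar* and *Mlkl* rise with LPS at both ages and stand lower in aged than in young LPS-treated cultures, *Birc2* and *Ripk1* stand lower with LPS, and *Ripk3* is at most 0.133 CPM in any library.

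*Tnfrsf1b*, on chromosome 4 (145213463 to 145246870, minus strand), was the most abundant of the 10 genes. The 5 young untreated cultures held it at 264, 204, 213, 185 and 176 CPM (replicates 1 to 5) and the 5 young LPS cultures at 2305, 2083, 2222, 1573 and 1668 CPM. The aged untreated cultures held it at 145, 138, 181, 141 and 137 CPM and the aged LPS cultures at 898, 980, 1468, 981 and 944 CPM. At either age the lowest LPS-treated culture was far above the highest untreated culture, and young and aged LPS-treated cultures did not overlap. LPS raised it 9.46-fold in young cultures (log2 fold change 3.24 ± 0.15, SE; edgeR adjusted p = 9.11e-15) and 7.10-fold in aged cultures (2.83 ± 0.14; edgeR adjusted p = 1.42e-13). Under LPS it was 1.87-fold lower in aged than in young cultures (log2 fold change -0.90 ± 0.13, edgeR adjusted p = 2.5e-05) and lower in 5 of 5 batches. The difference between the LPS responses, -0.41 on the log2 scale (95% confidence interval -0.81 to -0.02), missed the threshold (edgeR adjusted p = 0.228). Without the aged LPS replicate 3, whose level is the highest of its group, that difference was -0.56 and passed it (edgeR adjusted p = 0.0294). Leaving out the highest aged LPS culture makes the aged response smaller in any case. This was the only 1 of 25 fits without 1 library or replicate number that passed. Without replicate number 2 the edgeR adjusted p was 0.548.

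*Tnfrsf1a*, the receptor with the death domain (chromosome 6, 125349362 to 125362484, plus strand), moved far less. It lay at 84.5 to 91.0 CPM in young untreated, 118 to 138 in young LPS, 72.6 to 87.1 in aged untreated and 82.4 to 101 in aged LPS cultures. LPS-treated and untreated groups were apart in young cultures and overlapped in aged cultures. LPS raised it 1.47-fold in young cultures (log2 fold change 0.56 ± 0.06, edgeR adjusted p = 5.68e-08) and 1.18-fold in aged cultures (0.24 ± 0.06, edgeR adjusted p = 0.00278). Scaling on library sizes alone, which moved the median of all genes by -0.22 in the young and -0.16 in the aged LPS comparison, ended the call in aged cultures (0.08, edgeR adjusted p = 0.284). Under LPS it was 1.39-fold lower in aged cultures (-0.48 ± 0.06, edgeR adjusted p = 6.19e-06), with no overlap of the groups.

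*Fas* (chromosome 19, 34290666 to 34327772, plus strand) was near the floor of detection without LPS. Young untreated cultures held 2, 4, 4, 5 and 5 of its counts and aged untreated cultures 0, 0, 0, 5 and 1. Young LPS cultures held 89, 91, 103, 69 and 87 counts and aged LPS cultures 50, 47, 55, 44 and 50. Transcripts of this death receptor were thus counted in all LPS-treated cultures, and the young and aged ones did not overlap. Summed over each group and divided by the group's total without TMM scaling, the level was 0.276 CPM (95% Poisson interval 0.168 to 0.426) in young untreated, 0.0795 (0.0292 to 0.173) in aged untreated, 6.28 (5.71 to 6.89) in young LPS and 3.50 (3.08 to 3.96) in aged LPS cultures, where intervals cover counting error only. LPS raised it at both ages, by log2 fold changes of 4.70 ± 0.28 (edgeR adjusted p = 1.43e-12) and 5.47 ± 0.37 (edgeR adjusted p = 2.54e-11), the latter against a group with 6 counts in all. Under LPS it was 1.91-fold lower in aged cultures (-0.93 ± 0.19, edgeR adjusted p = 7.36e-04).

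Among the survival checkpoint genes, *Cflar*, the gene of the caspase-8 inhibitor cFLIP (chromosome 1, 58711508 to 58758884, plus strand), responded most. Young untreated cultures held it at 29.9, 34.2, 35.2, 33.2 and 30.2 CPM and young LPS cultures at 326, 326, 289, 236 and 256 CPM. Aged untreated cultures held it at 29.0, 25.8, 27.9, 30.2 and 30.9 CPM and aged LPS cultures at 185, 139, 182, 154 and 152 CPM. Untreated cultures of both ages overlapped, while every young LPS culture was above every aged LPS culture. The rise was 8.79-fold in young cultures (log2 fold change 3.14 ± 0.10, edgeR adjusted p = 2.09e-17) and 5.64-fold in aged cultures (2.50 ± 0.10, edgeR adjusted p = 1.44e-15). The response was smaller in aged cultures by 0.64 on the log2 scale (interaction -0.64 ± 0.13, edgeR adjusted p = 0.0044), in 5 of 5 batches, with within-batch differences of -0.83 to -0.33. The call held in all 20 fits without 1 library and all 5 without 1 replicate number.

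*Birc3* (cIAP2) and *Birc2* (cIAP1) are neighbours on the minus strand of chromosome 9 (7848699 to 7873186 and 7818227 to 7837064) and moved in opposite directions under LPS. *Birc3* was at 11.7, 12.6, 12.4, 11.3 and 10.5 CPM in young untreated and at 43.7, 48.4, 46.6, 35.0 and 31.4 CPM in young LPS cultures. In aged cultures it was at 11.6, 12.1, 10.8, 11.4 and 10.6 CPM untreated and at 27.7, 27.2, 24.2, 30.2 and 22.1 CPM with LPS. LPS-treated and untreated cultures were apart at both ages, and the highest aged LPS culture was just below the lowest young LPS culture. LPS raised *Birc3* 3.50-fold in young (log2 fold change 1.81 ± 0.11, edgeR adjusted p = 1.48e-12) and 2.33-fold in aged cultures (1.22 ± 0.11, edgeR adjusted p = 2.8e-09). The difference of the responses was -0.59 ± 0.15 (edgeR adjusted p = 0.0237) and negative in 5 of 5 batches. The call was lost without the young LPS replicate 2 (-0.52, edgeR adjusted p = 0.0522). It was also lost without replicate number 1, 2 or 3 (edgeR adjusted p = 0.0875, 0.155 and 0.088).

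*Birc2* was at 9.36 to 11.2 CPM in young untreated and 6.56 to 8.10 CPM in young LPS cultures, and at 9.15 to 11.0 and 6.85 to 8.44 CPM in the aged ones. The LPS-treated groups lay below the untreated groups at both ages. LPS lowered it 1.41-fold in young (log2 fold change -0.50 ± 0.09, edgeR adjusted p = 2.52e-05) and 1.35-fold in aged cultures (-0.43 ± 0.09, edgeR adjusted p = 1.59e-04), and the difference of the responses was 0.07 with a 95% confidence interval of -0.19 to 0.32.

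*Mlkl*, the gene of the necroptotic pore protein (chromosome 8, 111311797 to 111338177, minus strand), was readily measured. Young untreated cultures held it at 37.0, 48.5, 49.9, 47.2 and 44.5 CPM and young LPS cultures at 151, 168, 139, 125 and 139 CPM. Aged untreated cultures held it at 43.7, 43.5, 43.3, 43.3 and 44.8 CPM and aged LPS cultures at 85.3, 80.4, 112, 81.7 and 88.2 CPM. The aged untreated values lay within the range of the young ones, and under LPS all aged cultures were below all young cultures. LPS raised it 3.18-fold in young (log2 fold change 1.67 ± 0.09, edgeR adjusted p = 2.69e-13) and 2.05-fold in aged cultures (1.03 ± 0.09, edgeR adjusted p = 1.8e-09). The responses differed by -0.63 ± 0.13 (edgeR adjusted p = 0.0037), with the same sign in 5 of 5 batches and within-batch differences of -1.06 to -0.11. The smallest of these was in batch 3, which holds the aged LPS culture with the highest *Mlkl*.

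*Ripk3*, the gene of the kinase that acts on MLKL (chromosome 14, 55784995 to 55788865, minus strand), had 8 counts in all 20 libraries together and at most 2 in any. It was at 0 in 13 libraries. Its summed level, taken as for *Fas*, was 0.0413 CPM (95% Poisson interval 0.00853 to 0.121) in young untreated, 0.0286 (0.00346 to 0.103) in young LPS, 0.0265 (0.00321 to 0.0958) in aged untreated and 0.0142 (0.00036 to 0.0792) in aged LPS cultures. The intervals overlapped, no difference was detectable at this depth, and the gene was not tested. In these cultures the pore gene of necroptosis thus had 537 to 2029 counts per library and its kinase 0 to 2.

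*Ripk1* and *Casp8*, the kinase and the protease at the branch between survival and death, changed little. *Ripk1* (chromosome 13, 34002363 to 34037147, plus strand) was at 99.8 to 116 CPM in young untreated, 67.3 to 82.7 in young LPS, 86.1 to 97.8 in aged untreated and 69.9 to 85.7 in aged LPS cultures. LPS lowered it 1.35-fold in young (log2 fold change -0.43 ± 0.06, edgeR adjusted p = 3.16e-06) and 1.19-fold in aged cultures (-0.26 ± 0.06, edgeR adjusted p = 0.00157), and the groups did not overlap at either age. Exons of *Ripk1* share 511 bases with the pseudogene *Gm17084* on its strand and 241 bases with *Serpinb6a* on the other strand, so its counts are less certain than those of the other genes. *Casp8* (chromosome 1, 58795374 to 58847503, plus strand) lay at 50.2 to 63.6, 62.7 to 78.6, 48.0 to 59.0 and 50.6 to 58.5 CPM in the same order of groups. LPS raised it 1.24-fold in young cultures, where the groups overlapped (log2 fold change 0.31 ± 0.07, edgeR adjusted p = 7.12e-04), and the call was lost with library sizes alone (0.09, edgeR adjusted p = 0.274). In aged cultures the change was 0.07, with a 95% confidence interval of -0.08 to 0.22 (edgeR adjusted p = 0.433), and with library sizes alone it was -0.09. The difference of these responses, -0.24, did not pass the threshold (edgeR adjusted p = 0.194).

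**Figure D2:**
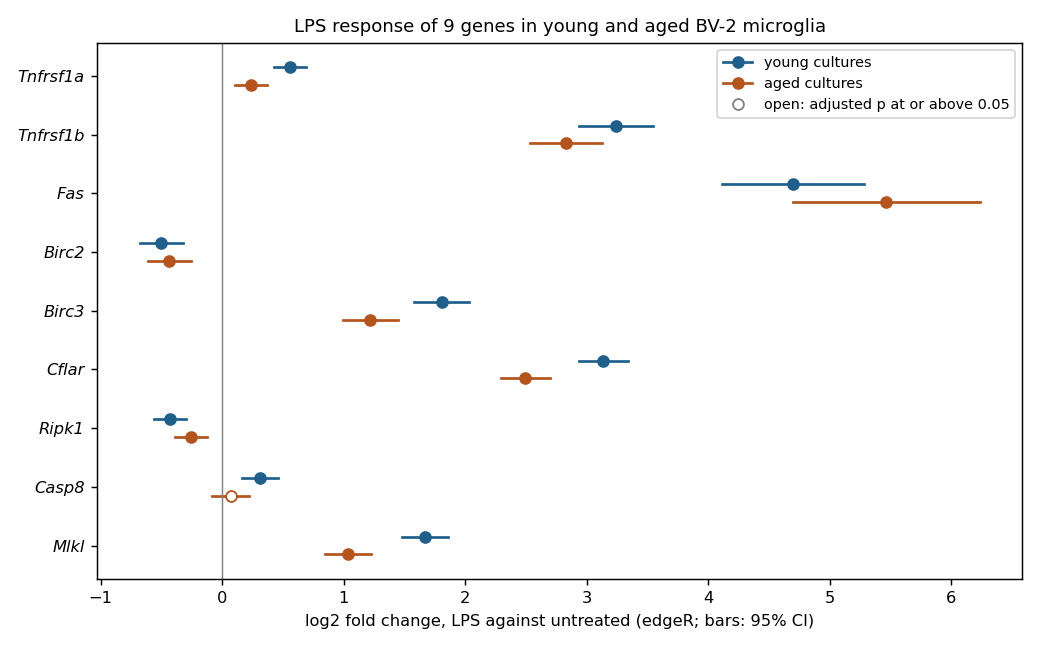
Log2 fold change of LPS-treated against untreated cultures (x axis) for the 9 genes tested, in young (blue) and aged (orange) cultures. Points are edgeR estimates, bars 95% confidence intervals, and open points missed an adjusted p of 0.05. *Cflar* stands at 3.14 in young and 2.50 in aged cultures and *Mlkl* at 1.67 and 1.03, *Birc2* and *Ripk1* lie below 0 at both ages, and *Casp8* in aged cultures is the open point at 0.07.

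Among untreated cultures, 1 of the 10 genes was called lower in aged cells and 0 higher, where 7.81% of all genes tested were lower and 3.71% higher. At an unadjusted p under 0.05 the number was 4, and DESeq2 called 2 of the genes. Among LPS-treated cultures, 7 were lower in aged cells and 0 higher, where 15.0% of all genes were lower and 14.0% higher. The median log2 fold change of the 9 genes tested was -0.16 without and -0.64 with LPS, beside -0.01 and 0.01 over all genes. Both comparisons rest on different cultures, but each shares its cultures with the LPS responses.

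*Tnfrsf1b* was the gene called in untreated cultures (log2 fold change -0.49 ± 0.14, edgeR adjusted p = 0.0218), lower in 5 of 5 batches although the groups overlapped. The call rested on several libraries. Without the young untreated replicate 1, which had the highest level, it was lost (-0.39, edgeR adjusted p = 0.0754), as it was without the aged untreated replicate 2, 4 or 5 (edgeR adjusted p = 0.0577, 0.0562 and 0.0539). *Ripk1* was the nearest miss. It was 1.14-fold lower in aged untreated cultures (-0.19 ± 0.06, edgeR adjusted p = 0.0504), the groups did not overlap, and with the replicate number as a block the difference passed the threshold (-0.19, edgeR adjusted p = 0.0169). It also passed without any of 5 single libraries, the young untreated replicate 4, young LPS replicate 1, aged untreated replicate 5 or aged LPS replicate 3 or 5 (edgeR adjusted p = 0.0269 to 0.0494). In all it passed in only 6 of 25 fits without 1 library or replicate number, with an edgeR adjusted p of up to 0.231. With library sizes alone it missed the threshold (edgeR adjusted p = 0.095). For *Fas* the difference of -1.70 had a 95% confidence interval of -2.97 to -0.44 (edgeR adjusted p = 0.0741). Without the aged untreated replicate 4, which held 5 of the group's 6 counts, it was -3.45 (edgeR adjusted p = 0.00336). The aged untreated libraries left in that fit held 0, 0, 0 and 1 counts, below the 3 counts at which detection was taken to start. Counts this low cannot decide whether *Fas* differed without LPS. *Tnfrsf1a* was at -0.16 (edgeR adjusted p = 0.108), and passed without the aged untreated replicate 1 (-0.20, edgeR adjusted p = 0.0437). It passed in 2 of 25 such fits, with an edgeR adjusted p of up to 0.304. *Birc2*, *Birc3*, *Cflar*, *Casp8* and *Mlkl* lay between -0.18 and 0.01, with adjusted p-values of 0.262 to 0.963 in edgeR.

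Under LPS, *Fas*, *Tnfrsf1b* and *Cflar* stood 1.76-fold to 1.91-fold lower in aged cultures. The other genes called were *Mlkl* (1.61-fold, log2 fold change -0.69 ± 0.09, edgeR adjusted p = 4.65e-06), *Birc3* (1.56-fold, -0.64 ± 0.10, edgeR adjusted p = 5.84e-05), *Tnfrsf1a* and *Casp8* (1.29-fold, -0.37 ± 0.07, edgeR adjusted p = 5.29e-04). For *Cflar* the difference was -0.82 ± 0.09 (edgeR adjusted p = 7.24e-07). In each of these 7 genes the aged and young groups did not overlap and the aged culture was lower in 5 of 5 batches. This describes the same cultures that the calls rest on and adds no separate evidence. The share of all genes with such groups was not counted. All 7 calls held in each of 25 fits that left out 1 library or 1 replicate number. *Birc2* (0.07, 95% confidence interval -0.11 to 0.26) and *Ripk1* (-0.02, 95% confidence interval -0.15 to 0.11), the genes that LPS lowered, were not called, and their young and aged groups overlapped.

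**Figure D3:**
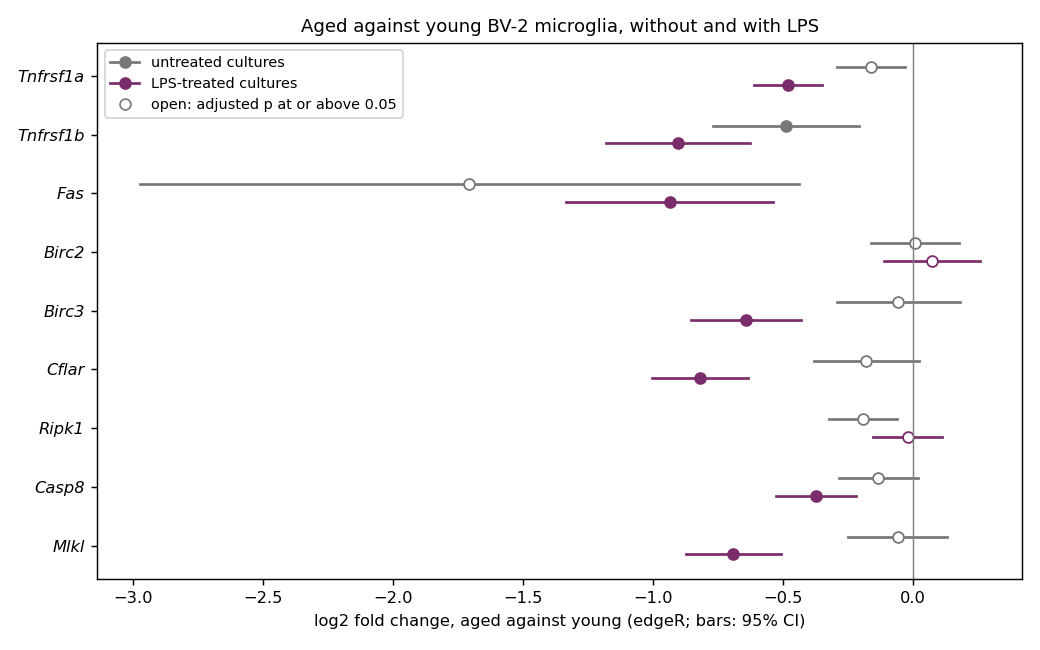
Log2 fold change of aged against young cultures (x axis) for the 9 genes tested, among untreated (grey) and LPS-treated (purple) cultures. Points are edgeR estimates, bars 95% confidence intervals, and open points missed an adjusted p of 0.05. The purple points of 7 genes lie between -0.93 and -0.37, those of *Birc2* and *Ripk1* near 0, and of the grey points *Tnfrsf1b* alone is filled.

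The difference of the LPS responses was called for 4 of the 10 genes, all with a smaller rise in aged cultures, where 2.27% of all genes tested were called with a lower and 4.12% with a higher value of this difference. *Cflar*, *Mlkl* and *Birc3* are described above. For *Tnfrsf1a* it was -0.32 ± 0.09 (edgeR adjusted p = 0.0322), negative in 4 of 5 batches, and the call was lost without any of 10 single libraries, in which the edgeR adjusted p was 0.0505 to 0.0737. These were the young untreated replicates 1, 2 and 4, the young LPS replicates 1 and 2, the aged untreated replicates 1 and 2 and the aged LPS replicates 2, 4 and 5. It was also lost with library sizes alone (-0.26, edgeR adjusted p = 0.0629) and with no filter on low counts (-0.31, edgeR adjusted p = 0.0632). *Fas*, *Birc2*, *Ripk1*, *Casp8* and *Tnfrsf1b* were not called, and for *Ripk1* the value was positive (0.17, 95% confidence interval -0.01 to 0.36).

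Ratios of counts within a library do not depend on how libraries are scaled, and 3 were compared by exact two-sided permutation tests over 5 against 5 libraries, with Benjamini-Hochberg adjustment over 15 comparisons. The smallest p that this design allows is 0.00794. *Tnfrsf1b* had 2.37 counts for each count of *Tnfrsf1a* in young untreated and 15.2 in young LPS cultures, 1.90 in aged untreated and 11.3 in aged LPS cultures (geometric means). LPS thus moved the log2 ratio of the receptors by 2.68 in young and 2.58 in aged cultures (exact permutation p = 0.00794, adjusted p = 0.0119 for both). The aged cultures were lower without LPS (log2 difference -0.32, exact permutation p = 0.0317, adjusted p = 0.0433) and under LPS (-0.43, exact permutation p = 0.0397, adjusted p = 0.0496), with overlapping groups. The difference without LPS missed the threshold without the young untreated replicate 1, 2 or 3 or the aged untreated replicate 1, 2, 4 or 5 (adjusted p of the exact permutation test 0.0595 to 0.0794). The one under LPS missed it without the young LPS replicate 1, 2 or 3 or the aged LPS replicate 1, 2, 4 or 5 (0.0794 to 0.0992), and, through the joint adjustment alone, without any of those untreated libraries (0.0541).

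*Birc3* and *Birc2* had nearly equal counts without LPS, with a ratio of 1.13 in young and 1.09 in aged cultures. Under LPS it was 5.51 in young and 3.40 in aged cultures, and no aged LPS culture reached the lowest young LPS culture. This difference was -0.70 on the log2 scale, and the within-batch LPS response of the ratio was smaller in aged cultures by 0.64 (log2 difference -0.64), each with an exact permutation p = 0.00794 and adjusted p = 0.0119. *Cflar* stood below *Casp8* without LPS, with a ratio of 0.567 in young and 0.549 in aged cultures, and above it with LPS, at 3.99 in young and 2.93 in aged cultures. The inhibitor thus had fewer counts than the caspase in every untreated culture and more in every LPS-treated culture. Under LPS the aged ratio was lower (log2 difference -0.44), as was its LPS response (-0.40), each with an exact permutation p = 0.00794 and adjusted p = 0.0119. Counts of different genes also depend on transcript length, so the direction of change of a ratio can be read but not which gene has more molecules.

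**Figure D4:**
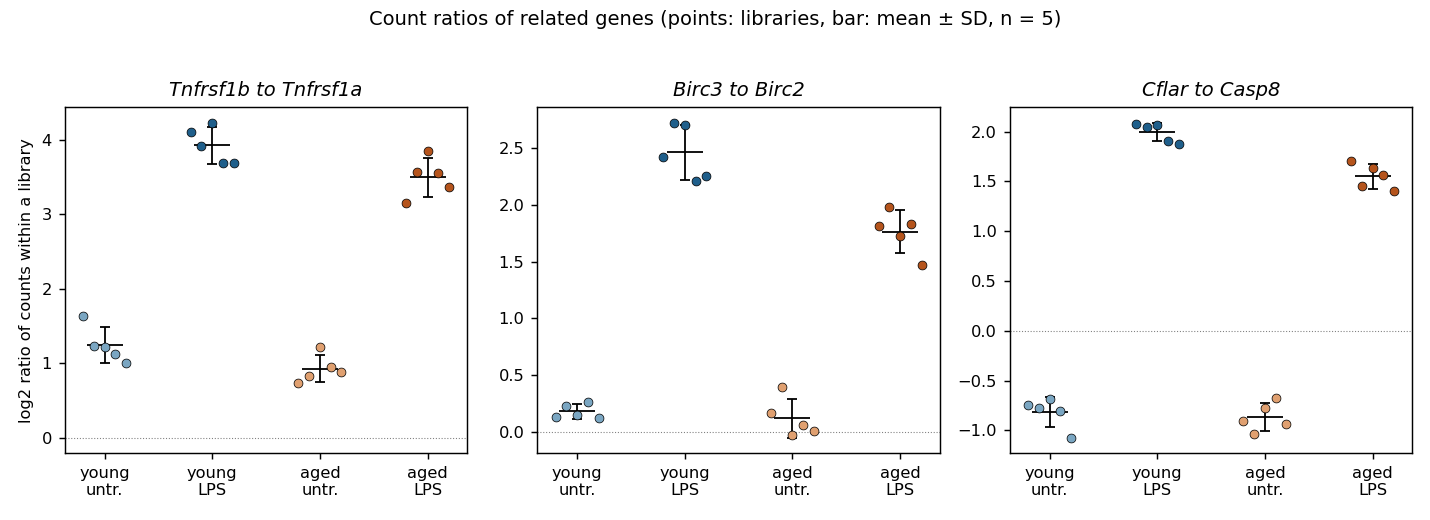
Log2 ratios of counts within each library (y axis, a scale of its own per panel) for *Tnfrsf1b* to *Tnfrsf1a*, *Birc3* to *Birc2* and *Cflar* to *Casp8*, by group. Points are libraries, bars mean and SD (n = 5), and the dotted line marks equal counts. *Cflar* to *Casp8* is below 0 in all untreated and above 0 in all LPS-treated cultures, and aged LPS cultures stand below young LPS cultures for *Birc3* to *Birc2* and *Cflar* to *Casp8*.

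Per kilobase of annotated exon, the order in young untreated cultures was *Tnfrsf1b* (54.5 ± 9.0 CPM per kilobase, SD, n = 5), *Tnfrsf1a* (33.5 ± 1.0), *Casp8* (19.9 ± 1.7), *Mlkl* (19.7 ± 2.2), *Ripk1* (12.6 ± 0.74), *Cflar* (2.57 ± 0.19), *Birc3* (2.34 ± 0.17), *Birc2* (2.25 ± 0.17), *Fas* (0.126 ± 0.039) and *Ripk3* (0.0172 ± 0.026). *Casp8* and *Mlkl* could not be ordered, nor could *Cflar*, *Birc3* and *Birc2*, since their libraries overlapped. In young LPS cultures *Tnfrsf1b* (516 ± 87) was followed by *Mlkl* (62.8 ± 7.0) and *Tnfrsf1a* (49.4 ± 3.1), and *Casp8* (24.7 ± 2.3) and *Cflar* (22.6 ± 3.2) overlapped. *Ripk1* (9.36 ± 0.75) and *Birc3* (8.19 ± 1.5) overlapped as well, ahead of *Fas* (3.40 ± 0.66), *Birc2* (1.60 ± 0.12) and *Ripk3* (0.0129 ± 0.018). In aged cultures *Tnfrsf1b* stood at 38.9 ± 4.8 without and 276 ± 61 with LPS, and under LPS *Mlkl* (38.9 ± 5.6) and *Tnfrsf1a* (35.4 ± 3.5) overlapped, as did *Fas* (1.77 ± 0.094) and *Birc2* (1.68 ± 0.13). By the longest transcript instead of all exons, *Cflar* lay above *Casp8* in young LPS cultures with no overlap (43.6 ± 6.2 against 27.6 ± 2.6), and in young untreated cultures *Cflar*, *Birc3* and *Birc2* no longer overlapped (4.95 ± 0.36, 4.02 ± 0.29 and 3.10 ± 0.24), so these orders depend on the length taken.

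The other genes of the pathway were taken as 10 lists of 82 genes, of which 72 passed the filter on low counts. LPS raised 48 and lowered 14 of them in young cultures and raised 41 and lowered 14 in aged cultures, with median log2 fold changes of 0.46 and 0.32. Over all genes tested, 31.2% were higher and 33.5% lower in young and 27.5% and 26.9% in aged cultures. The same shares stand beside the LPS counts of each list below. Of the death ligands, *Tnf* itself was at 24.5 ± 4.44 CPM (SD, n = 5) in young untreated and 822 ± 201 CPM in young LPS cultures, and at 16.6 ± 3.28 and 447 ± 72.6 CPM in aged ones. LPS raised it by log2 fold changes of 5.07 ± 0.18 and 4.74 ± 0.18 (edgeR adjusted p = 1.43e-16 and 7.82e-16). *Tnfsf10* (TRAIL) had 0 counts in all untreated cultures and 306 and 118 counts in the young and aged LPS groups. *Lta*, which binds both TNF receptors, had 5 and 0 counts in the untreated and 314 and 178 in the LPS-treated groups. Like *Fas*, *Tnfsf10* and *Lta* passed the filter on low counts only through LPS-treated cultures, so a rise was the only change open to them. *Fasl*, the ligand of *Fas*, was at 0 in 19 libraries, and neither it nor *Ltb* passed the filter.

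Of the receptor shedding list, *Adam17*, the protease that sheds TNF and its receptors, rose by 1.36 ± 0.04 in young and 1.26 ± 0.04 in aged cultures on the log2 scale, and its partner *Rhbdf2* by 2.36 and 2.11. *Adam10* fell (-0.58 and -0.47), and *Rhbdf1* and *Timp3* did not pass the filter. Among 12 other receptors of the TNF family, 5 rose and 1 fell in young cultures and 4 rose and 1 fell in aged ones, led by *Cd40* (5.68 and 5.57), a costimulatory receptor, and *Tnfrsf9* (3.32 and 2.82), while *Tnfrsf11a* (RANK) fell (-0.34 and -0.48). Of 7 adaptors, 4 and 3 rose and 2 and 1 fell, led by *Traf1*, which was at 0 to 0.171 CPM in aged untreated and 78.1 to 112 CPM in aged LPS cultures. *Tradd*, the adaptor that binds the death domain of TNFR1, fell (-0.48 and -0.34). The ubiquitin machinery had 6 of 9 genes higher in young cultures and 5 higher and 2 lower in aged ones, and *Tnfaip3* (A20), which edits ubiquitin chains at the receptor, rose most (4.05 and 3.95), followed by its partner *Tnip1* (2.61 and 2.53). All of these values passed the threshold in edgeR.

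Of 12 checkpoint kinases, 7 rose and 3 fell in young and 6 rose and 2 fell in aged cultures, with the largest rises in *Ikbke* (2.76 and 2.93) and *Mapkapk2* (1.98 and 1.69), kinases that phosphorylate RIPK1, and the largest falls in *Map3k5* (-0.58 and -0.59) and *Tab1* (-0.40 and -0.42). All 4 partners with the RIPK3 interaction motif or other ties to necroptosis rose at both ages. Among them, *Zbp1*, a sensor that binds RIPK3, went from at most 0.138 CPM to 5.89 to 7.61 CPM in young and 1.98 to 4.90 CPM in aged cultures. *Zbp1* too passed the filter on low counts only through LPS-treated cultures, so its rise was fixed by that filter. *Ticam1* (TRIF), the TLR4 adaptor that can engage RIPK1 and RIPK3, rose by 1.93 and 1.66, and *Pgam5* and *Ppm1b* by 0.20 to 0.38. Of the 9 genes of the caspases and apoptosome list, 5 were lower at both ages and 3 and 2 were higher, with a median of -0.18 and -0.16. *Casp6* fell by 1.14 and 0.84 on the log2 scale, while *Cycs*, the gene of cytochrome c, rose by 0.47 and 0.30. Of 16 genes of the BCL2 family, 11 and 10 rose and 2 fell at both ages. *Mcl1*, which blocks mitochondrial death, rose by 1.16 and 0.87, and *Bmf*, which promotes it, fell by 3.18 and 1.77. Other genes of this list that promote it went both ways. Mean *Bid* went from 81.3 to 172 CPM in young and from 89.9 to 150 CPM in aged cultures. Mean *Bcl2l11* went from 91.9 to 172 CPM and from 78.7 to 124.5 CPM. Mean *Bad* went down, from 20.4 to 16.2 CPM and from 18.1 to 15.5 CPM. The *Bcl2a1* genes are near-identical copies and their counts are uncertain. Of the 3 lytic death executors, *Gsdme* rose by 1.51 and 1.44 and *Ninj1*, whose product ruptures the membrane of dying cells, by 1.36 and 1.22. *Gsdme* was low, at 0.276 to 0.932 CPM in young untreated and 0.747 to 2.28 CPM in young LPS cultures. Its LPS-treated and untreated groups overlapped at both ages.

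Between the ages, 15 of the 72 genes tested were lower in aged untreated cultures and 0 higher, with a median of -0.09, where 7.81% of all genes were lower and 3.71% higher. At an unadjusted p under 0.05 the number was 24, and DESeq2 called 18. *Tnf* (-0.56), *Tnfaip3* (-0.62), *Cd40* (-1.16), *Ikbke* (-0.45), *Gsdmd* (-0.36), *Ninj1* (-0.31), *Tnfrsf14* (-1.51) and *Bmf* (-0.70) were among those lower. *Traf1* had 5 counts in the aged and 150 in the young untreated group, of which 83 were in replicate 1. Under LPS, 37 of the 72 were lower and 2 higher in aged cultures, with a median of -0.19, where 15.0% of all genes were lower and 14.0% higher. *Tnf* (-0.88), *Lta* (-0.90), *Cd40* (-1.27), *Tnfaip3* (-0.72), *Tbk1* (-0.37), *Ticam1* (-0.50) and *Gsdmd* (-0.86) were among those lower. By list these were 3 of 5 ligands, 2 of 12 other receptors, 2 of 5 shedding genes, 2 of 7 adaptors, 7 of 9 genes of the ubiquitin machinery, 7 of 12 kinases, 3 of 4 necroptosis partners, 2 of 9 caspases and apoptosome genes, 7 of 16 genes of the BCL2 family and 2 of 3 executors. The 2 genes higher in aged LPS cultures were *Traf6* (0.21) and *Bmf* (0.72). For *Tnf*, the study measured mRNA by RT-qPCR and the secreted protein, and reported no significant difference in LPS induction between the ages. The study gave its RT-qPCR values as fold over untreated control cells, so they compare levels under LPS. In the counts, that comparison was called for *Tnf*, which was lower in aged cultures (-0.88). The difference of the LPS responses was called for 0 of the 3 ligands tested. Of these, *Lta* and *Tnfsf10* had 0 to 5 counts per untreated group, too few to compare responses.

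The LPS responses differed between the ages for 7 of the 72 genes tested, 2 with a higher and 5 with a lower value of the difference. Over all genes tested, 4.12% were called with a higher and 2.27% with a lower value, so the balance there was the other way. The rise was smaller in aged cultures for *Bid* (-0.34, edgeR adjusted p = 0.0041), whose product caspase-8 cleaves, for *Mcl1* (-0.29, edgeR adjusted p = 0.0067), *Tbk1* (-0.28), *Rnf31* (-0.41) and *Gsdmd* (-0.51). *Gsdmd*, the pore gene of pyroptosis, rose by 0.56 in young cultures and stood at 0.05 in aged ones, where the change was not called. For *Bmf* the fall was smaller in aged cultures (1.42, edgeR adjusted p = 8.49e-04). For *Traf1* the value was positive (4.00), with 5 counts in all of the aged untreated group. At an unadjusted p under 0.05 the number was 18, and DESeq2 called 11.

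**Figure D5:**
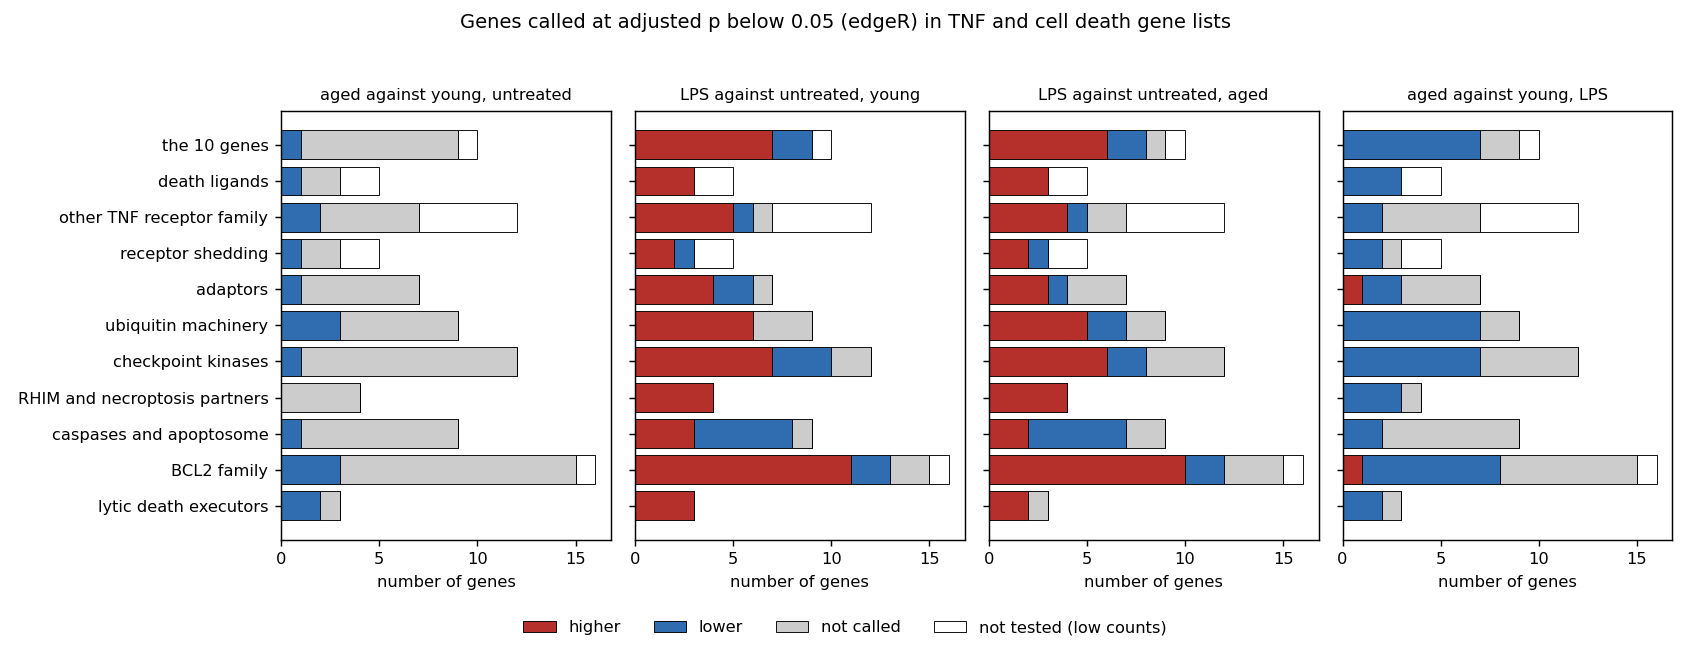
Number of genes (x axis) of each list that edgeR called higher (red) or lower (blue), did not call (grey) or did not test for low counts (white), in 4 comparisons. For the 10 genes the LPS panels show 7 and 6 higher, and the panel of aged against young LPS-treated cultures shows 7 lower for them and none higher, with blue in every list.

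For each gene tested, the other gene with the most similar log2 CPM over the 20 libraries was named as a description. *Cflar* was nearest to *Rnf19b* (Pearson r = 0.998), *Tnfrsf1b* to *Syk* (0.998), *Mlkl* to *Iigp1* (0.993), *Fas* to *Susd6* (0.988), *Birc3* to *Pafah1b1* (0.983), *Tnfrsf1a* to *Treml2* (0.976), *Ripk1* to *Pkib* (0.972), *Birc2* to *Ddb2* (0.946) and *Casp8* to *Acap2* (0.936). All points are the same libraries, which fall into LPS-treated and untreated ones, so a high r says that both genes follow that split.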

How the data were processed

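Stranded libraries of poly(A) RNA from 20 BV-2 cultures were sequenced in pairs of reads. The authors aligned the reads to GRCm38 with STAR 2.6.1d and deposited counts per Ensembl gene from featureCounts 1.5.1, without normalization. How strand, multiply aligned reads and overlapping genes were handled is not given in the sources used here. All 20 columns were matched to samples by name, and 55227 of 55487 identifiers to symbols of a GENCODE annotation of GRCm38.

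The genes and lists were chosen with earlier results of these data known. Counts were tested with edgeR 4.0.16 (limma 3.58.1, R 4.3.3), by its quasi-likelihood F-test with TMM scaling and filterByExpr. One model held all 20 libraries and the 4 groups, and p-values were adjusted over 12799 genes (Benjamini-Hochberg, threshold 0.05). The interaction is the LPS response of aged minus that of young cultures. The prior count was 2 for log2 CPM, and 0.5 was added to counts in ratios. Detection was taken to start at 3 counts. Poisson intervals are exact and, with floors, cover counting error only. Ratios were compared by exact permutation tests (SciPy 1.17.1). The fits were tested on simulated data.

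The labels give the replicate number as the batch number, so it pairs the cultures. Across genes, the deviations from group means of cultures with the same number correlated at 0.122 to 0.394 between groups of the same age and at -0.214 to 0.275 between ages at the same treatment. Replicates of a group differed by more than sampling noise (chi-square per degree of freedom 2.37 to 25.7), and each was counted as 1 sample.

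Alternatives were DESeq2 1.42.0, the replicate block, DESeq2's size factors, library sizes alone, leaving the filter out, a stricter filter (every library at 10 counts or more), only the groups compared, a threshold of 0.01, each library and each replicate number left out, and for levels the longest transcript. All genes of the 10 were named, and of the other lists every gene of lists with 5 or fewer and otherwise at most the 2 largest rises and falls that passed, at 1 CPM or more. The LPS responses of *Mcl1* and any other value outside this rule were chosen after values were seen. Some genes that the rule names are not reported here.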

Additional observations from a re-analysis of the deposited data

Results flagged for a closer look

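Within groups of 5, 5 of 36 sets of values of the 9 genes had a library far from the others (gap to the nearest divided by the range above 0.71, a limit that chance passes in about 5% of groups). *Tnfrsf1b* was highest in replicate 3 of both aged groups, at 181 CPM (180.6) untreated and 1468 CPM with LPS. *Mlkl* was highest in the same aged LPS replicate 3 (112 CPM) and in the aged untreated replicate 5, at 44.8 CPM (44.82), where the group spans less than 2 CPM. *Ripk1* was lowest in the young LPS replicate 1 (67.3 CPM).

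The LPS response differed between aged and young cultures by the interaction test in edgeR for *Tnfrsf1a* (log2 difference -0.32), *Birc3* (-0.59), *Cflar* (-0.64) and *Mlkl* (-0.63), and by the exact permutation test for the count ratios of *Birc3* to *Birc2* (-0.64) and *Cflar* to *Casp8* (-0.40). In all of these the rise under LPS was smaller in aged cultures.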

How the results depend on the processing

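Of the 10 genes, the number called in aged against young untreated cultures was 1, and 2 with DESeq2, with the replicate block, with at least 10 counts in every library or with only the groups compared, and 0 at a threshold of 0.01. It ranged from 0 to 2 without 1 library and from 0 to 2 without 1 replicate number. The additional gene under the first 4 settings was *Ripk1*. For the difference of the LPS responses the number was 4, and 2 at a threshold of 0.01, from 2 to 5 without 1 library and from 1 to 3 without 1 replicate number. Without replicate number 2 the calls over all genes fell as well, from 818 to 189, and the smaller number of libraries is part of that setting. *Birc3* then stood at -0.54 (edgeR adjusted p = 0.155) and *Mlkl* at -0.56 (edgeR adjusted p = 0.05). The numbers called in both LPS responses (9 and 8) and in aged against young LPS cultures (7) stayed within 1.5 times under every alternative run. No difference that passed the threshold changed sign. Among those that did not pass, *Casp8* in the LPS response of aged cultures (0.07) and *Ripk1* in aged against young LPS cultures (-0.02) changed sign with library sizes alone (-0.09 and 0.06). Without 1 library or replicate number, *Ripk1* there ranged from -0.07 to 0.02 and *Birc2* in aged against young untreated cultures (0.01) from -0.043 to 0.065. The replicate block changed no call of the 10 genes other than that of *Ripk1*.

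The count ratio of *Tnfrsf1b* to *Tnfrsf1a* was below an adjusted p of 0.05 in 13 of 20 leave-one-out tests for aged against young untreated cultures (log2 difference -0.39 to -0.22) and in 6 of 20 for LPS-treated ones (-0.51 to -0.34). Without 1 library, its largest adjusted p was 0.0794 and 0.0992 by the exact permutation test. Over all genes, the calls were 1475, 3717 and 818 for aged against young untreated cultures, for aged against young LPS cultures and for the difference of the LPS responses, and 622, 2333 and 328 at a threshold of 0.01. They ranged from 954 to 1646, 2952 to 3937 and 554 to 1069 without 1 library, and from 548 to 1193, 2156 to 3563 and 189 to 697 without 1 replicate number. Depth limits *Fas* and *Ripk3* in untreated cultures, where a count of 3 is 0.165 to 0.207 CPM.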
